A study of Equus caballus with 8 samples.

Results

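Vascular endothelial growth factors (VEGFs), angiopoietins and angiopoietin-like proteins were examined in BM-MSCs, equine mesenchymal stem cells of the bone marrow, by selecting the rows of the deposited expression table whose gene symbol was VEGFA, VEGFB, VEGFC, VEGFD, PGF, ANGPT2, ANGPTL2, ANGPTL4, FLT1 or TEK. The selection used names alone and no measured value. Of these 10 genes, 8 had a row among the 15266 named genes, and all 8 passed the filter that left 14907 genes for testing. VEGFD and TEK were not analysed here. Of the 8 genes, 6 had at least 10 normalized counts in all libraries, whereas ANGPT2 reached this level in the 4 untreated libraries and 1 treated library, and FLT1 in 4 treated and 2 untreated libraries.

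These stromal cells attach to plastic and were expanded from the sternal marrow of 4 adult horses, here named by their letters D, J, L and W. Every horse contributed an untreated culture and a culture that received 1 ng/ml recombinant human TGF-β2, which the labels date from first isolation to passage 3 or 4. Both groups grew in the same low-glucose medium with fetal bovine serum and basic fibroblast growth factor, so the untreated cells were exposed to that growth factor as well. Paired-end sequencing of poly(A) RNA gave 4 untreated and 4 TGF-β2-treated libraries.

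VEGFs are secreted dimers that act on receptor tyrosine kinases of endothelial cells and drive the growth of blood and lymphatic vessels. Angiopoietins act on the receptor TIE2, encoded by TEK, and regulate the stability of vessels. Angiopoietin-like proteins share the domain structure of angiopoietins without binding TIE2, and some of them act on lipid metabolism. Marrow stromal cells are known as a source of such factors, and their secretion is one of the reasons for using BM-MSCs in tendon injury.

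Values are normalized counts, that is, reads per gene after division by the size factor of the library. They were not divided by gene length, so levels are compared between libraries and not between genes. The reads counted per library were recovered from these values, and numbered 40044240 to 57228675 in the untreated and 39184554 to 46634539 in the treated libraries. A gene was called when the Benjamini-Hochberg adjusted p of limma, with the horse as a block, was under 0.05 and the absolute log2 fold change was over 1. Fold changes are on the log2(normalized count + 1) scale, on which a gene with few reads appears to change less than it did. The untreated library of horse J was the most deeply sequenced and had the lowest share of reads from FN1, COL1A1 and COL1A2, 0.881% where the untreated libraries reached 6.27% and the treated libraries held 10.3% to 14.4%. The calls of the 8 genes and of the related lists that changed without horse J are given with their values or counts.

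Of the 8 genes, 0 were called higher and 2, ANGPT2 and ANGPTL4, were called lower after TGF-β2 treatment. Among all 14907 genes tested, 6.83% were called higher and 7.31% lower. The median log2 fold change of the 8 genes was -0.64, beside 0.0055 over all genes tested. At an unadjusted p under 0.05 from limma, 1 of the 8 was higher and 5 were lower, where 22.4% of all genes were higher and 21.9% lower at that level. DESeq2 with the horse in the model called FLT1 higher and PGF, ANGPT2 and ANGPTL4 lower, where it called 7.46% of all genes higher and 8.26% lower, and edgeR called 0 higher and the same 2 genes lower as limma, where it called 6.64% and 7.17% of all genes. In these bulk cultures, fewer cells of a type and less RNA per cell cannot be told apart.

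**Figure D1:**
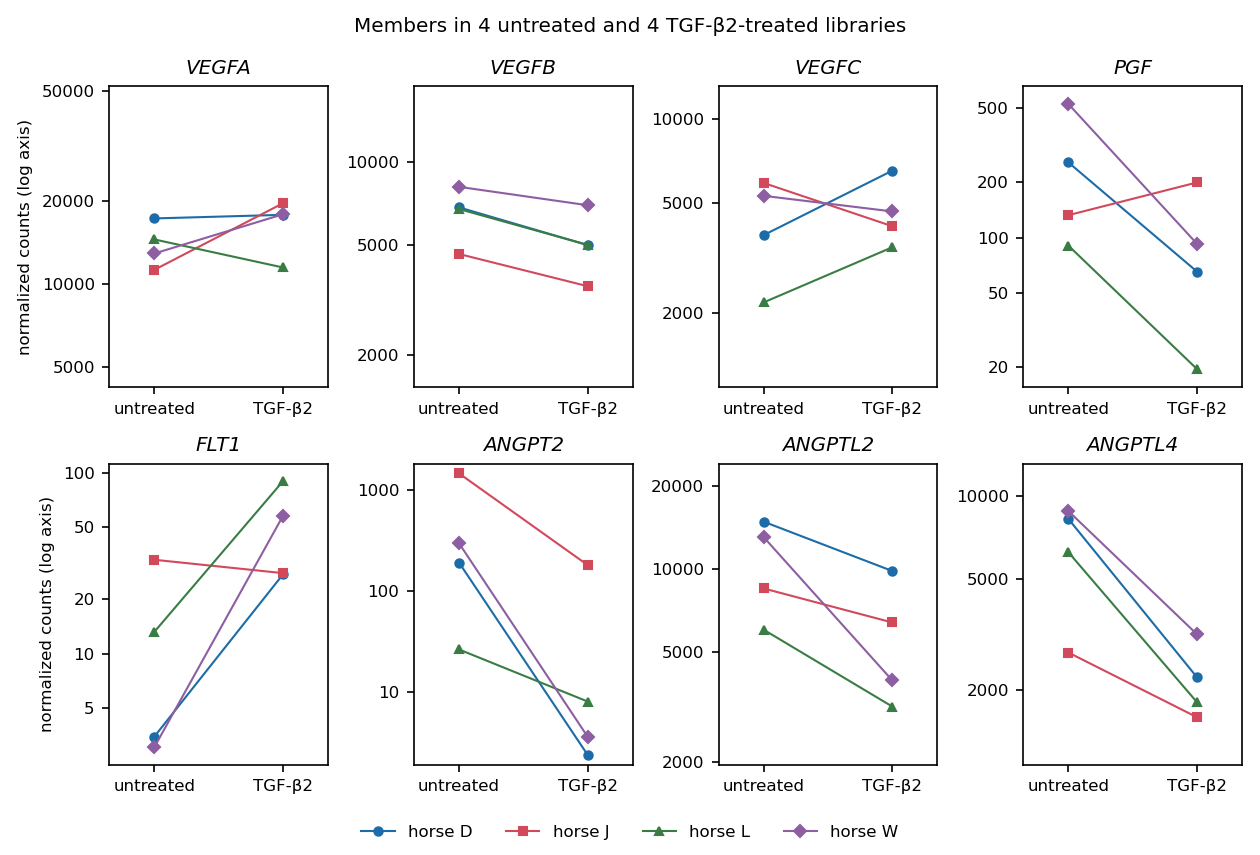
Normalized counts (log axis) of the 8 genes in the untreated and TGF-β2-treated library of each horse, with a line joining the libraries of 1 horse. ANGPTL4, ANGPTL2, VEGFB and ANGPT2 slope downward in all 4 horses, whereas VEGFA, VEGFC, PGF and FLT1 differ in direction between horses.

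VEGFA, the principal growth factor for blood vessels, held 17286, 11271, 14513 and 12914 normalized counts in the untreated libraries of horses D, J, L and W. The treated libraries held 17813, 19618, 11492 and 17894. The groups overlapped, and the treated library was the higher in horses D, J and W and the lower in horse L. The log2 fold change was 0.24 (SE 0.20, limma adjusted p = 0.385), with a 95% interval from -0.25 to 0.74 that corresponds to 0.842-fold to 1.67-fold. It was 0.059 without horse J (limma adjusted p = 0.802), 0.17 without horse W (limma adjusted p = 0.671) and 0.44 without horse L (limma adjusted p = 0.149). VEGFA was not called in any of these fits, and the interval covers no change as well as a moderate increase. Counts were made per gene, so the isoforms of VEGFA, which differ in how they bind matrix, were not separated.

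VEGFB, a ligand of FLT1 best known from heart and muscle, was lower in the treated library of every horse by a narrow margin. Its untreated values were 6835, 4636, 6738 and 8108 in D, J, L and W, and its treated values were 4991, 3546, 5003 and 6956. The log2 differences within horses lay between -0.45 and -0.22, the narrowest range of the 8 genes, although the groups overlapped, with horse J the lowest and horse W the highest in both. The log2 fold change was -0.37 (SE 0.080, limma adjusted p = 0.0218), which passed the p threshold and not the fold threshold. Without the horse as a block the limma adjusted p was 0.282.

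VEGFC, the main growth factor for lymphatic vessels and a ligand of FLT4, showed opposite differences between horses. The untreated libraries held 3818, 5891, 2180 and 5293 normalized counts, and the treated libraries 6527, 4110, 3450 and 4648. The treated value was higher in horses D and L and lower in horses J and W. The log2 fold change was 0.18 (SE 0.24, 95% interval -0.42 to 0.78, limma adjusted p = 0.597), so no difference was detected beyond the spread between horses. Leaving out 1 horse moved this value from -0.015 without horse D and 0.022 without horse L to 0.31 without horse W and 0.42 without horse J, with no call.

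PGF, placental growth factor, is a ligand of FLT1. It held 254 (D), 132 (J), 90.5 (L) and 525 (W) normalized counts in the untreated libraries and 65.5, 198, 19.5 and 92.5 in the treated libraries. It was 3.88-fold lower in horse D, 4.63-fold lower in horse L and 5.67-fold lower in horse W, and 1.5-fold higher in horse J, with a 95% exact counting interval of 1.22 to 1.84 for horse J. Over the 4 horses the log2 fold change was -1.5 (SE 0.54, 95% interval -2.83 to -0.17) with a limma adjusted p of 0.0847, and PGF was not called. Without horse J the log2 fold change was -2.19 with a limma adjusted p of 0.00234, and DESeq2 with all 4 horses gave -1.57 with an adjusted p of 0.0124.

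FLT1, also named VEGFR1, is a receptor for VEGFA, VEGFB and PGF whose soluble form traps these ligands. It was counted with few reads in these cells, and gene counts do not separate the soluble from the membrane form. The untreated libraries of D, J, L and W held 4, 49, 14 and 3 reads, or 3.48, 33.0, 13.2 and 3.04 normalized counts. The treated libraries held 23, 26, 78 and 48 reads, or 27.4, 27.8, 89.7 and 57.7 normalized counts. The treated library was 7.87-fold higher in horse D (95% exact counting interval 2.69 to 31.3), 6.80-fold in horse L (3.82 to 13) and 18.9-fold in horse W (6.11 to 95.1). In horse J the ratio was 0.844 (0.503 to 1.38), its untreated library being above the treated libraries of D and J. These intervals cover counting error only.

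Over the 4 horses FLT1 had a log2 fold change of 2.24 (SE 0.68, 95% interval 0.56 to 3.92) with a limma adjusted p of 0.0551, so it was not called. Leaving out horse J gave 3.07 with a limma adjusted p of 0.00491, and DESeq2 with the 4 horses gave 2.43 with an adjusted p of 0.00668, whereas edgeR gave an adjusted p of 0.0816. Without horse J, limma called 1 of the 8 genes higher, FLT1, beside 7.67% of all genes, and 4 lower, PGF, ANGPT2, ANGPTL2 and ANGPTL4, beside 8.71%.

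ANGPT2, a ligand of TIE2 that mostly opposes ANGPT1 and loosens vessels, had the lowest fold change of the 8 genes. The untreated libraries held 191 (D), 1464 (J), 26.4 (L) and 297 (W) normalized counts, a 55.5-fold span between horses. The treated libraries held 2.38, 181, 8.05 and 3.60 normalized counts, which correspond to 2, 169, 7 and 3 reads. In 3 of the 4 treated libraries the level was below every untreated library, and that of horse J overlapped the untreated range. The ratio of untreated to treated was 80.4 in horse D (95% exact counting interval 22 to 668), 8.09 in horse J (6.92 to 9.52), 3.28 in horse L (1.40 to 8.89) and 82.5 in horse W (27.9 to 402).

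ANGPT2 was called lower with a log2 fold change of -4.11 (SE 0.81, limma adjusted p = 0.0174). The size of this change differed widely between horses, from -6.02 in horse W to -1.60 in horse L on the log2 scale. The call was lost without the horse as a block (limma adjusted p = 0.0834), and it was also lost when horse D (-3.54, limma adjusted p = 0.0763) or horse W (-3.48, limma adjusted p = 0.0801) was left out. Without the block, ANGPTL4 was the only one of the 8 genes called lower, beside 5.87% of all genes.

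ANGPTL2, a secreted glycoprotein linked to inflammation and vessel growth, held 14825, 8505, 6032 and 13032 normalized counts in the untreated libraries of D, J, L and W. The treated libraries held 9835, 6407, 3182 and 3956. Each treated library was below its own untreated library, by 1.51-fold in horse D, 1.33-fold in J, 1.90-fold in L and 3.29-fold in W, while the groups overlapped. The log2 fold change was -0.91 (SE 0.22, limma adjusted p = 0.0316), which passed the p threshold and stopped short of the fold threshold. Without the block the limma adjusted p was 0.140, and without horse J the gene passed both thresholds at -1.08 (limma adjusted p = 0.0184).

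ANGPTL4, an inhibitor of lipoprotein lipase that also acts on vessel permeability and is a known target of PPAR receptors and of hypoxia, was lower in the treated library of all 4 horses. The untreated libraries held 8279, 2722, 6274 and 8836 normalized counts in D, J, L and W, a mean of 6528 ± 2765 (SD, n = 4). The treated libraries held 2215, 1589, 1800 and 3168, a mean of 2193 ± 700.2 (SD, n = 4), or 33.6% of the untreated mean. The decrease was 3.74-fold, 1.71-fold, 3.48-fold and 2.79-fold in the same order of horses. The untreated library of horse J lay below the treated library of horse W, and this pair of libraries was the one overlap between the groups.

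The log2 fold change of ANGPTL4 was -1.49 (SE 0.20, 95% interval -1.98 to -0.996), a 2.81-fold decrease with a limma adjusted p of 0.00613. It passed the test without the block as well (limma adjusted p = 0.0267). ANGPTL4 was the one gene of the 8 that was called in each of 17 alternative analyses, with fold changes between -1.80 and -1.35.

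**Figure D2:**
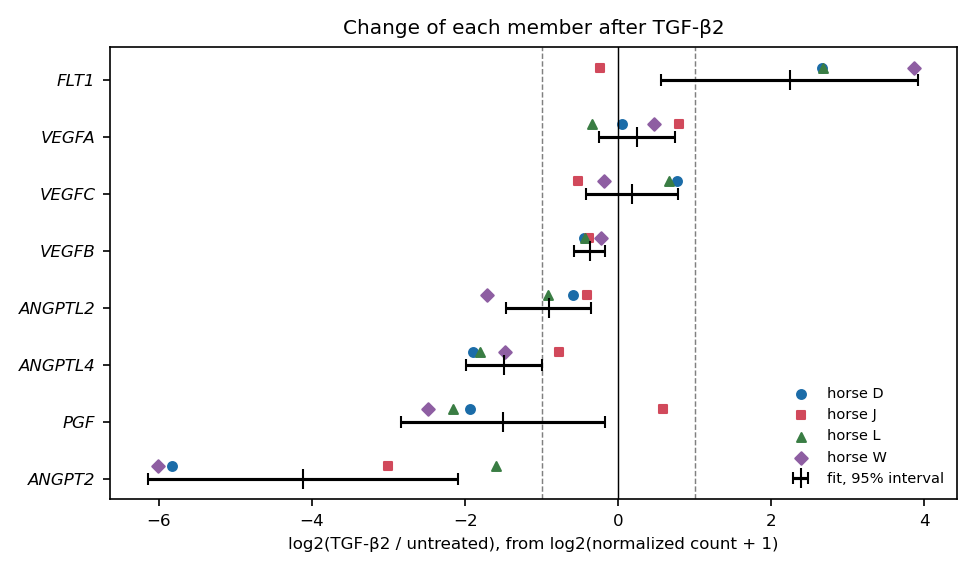
Log2 ratio of TGF-β2-treated to untreated for each of the 8 genes, shown for each horse (symbols) and as the limma estimate with its 95% interval (bars), with dashed lines at the fold threshold of 1. The interval of ANGPTL4 reaches from -1.98 to -0.996 and that of VEGFA spans 0, and horse J lies apart from the other horses for PGF and FLT1.

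Across the horses, the number of the 8 genes that were lower after treatment was 5 in horse D and 6 in each of J, L and W. Of the 8 genes, 4 were lower in all 4 horses, VEGFB, ANGPT2, ANGPTL2 and ANGPTL4, as were 25.6% of all genes tested. For 0 of the 8 did the treated libraries lie below all untreated libraries without overlap, where this held for 13.9% of all genes. For 0 of the 8 was the treated library higher in all 4 horses, as it was for 26.3% of all genes. Horses differed most in the log2 difference of ANGPT2, with a range of 4.42, followed by FLT1 with 4.10 and PGF with 3.07, while the range was 1.31 or less for the other 5 genes.

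Scaling each library to its total reads, in place of the size factors, moved the median log2 fold change of all genes to -0.30 and the share of calls that were higher from 48.3% to 27.6%. Under that scaling 4 of the 8 genes were called lower, PGF, ANGPT2, ANGPTL2 and ANGPTL4, beside 12.4% of all genes, and the fold changes of VEGFA and VEGFC became -0.068 and -0.13, both not called. Ratios of genes within a library do not depend on this scaling. The log2 ratio of PGF to VEGFA was lower after treatment in 4 of 4 horses, by 0.22 to 2.96 with a mean difference of -1.74 (exact two-sided permutation test over 70 splits, without regard to the horse, p = 0.0571, adjusted over 4 ratios p = 0.229). The log2 ratio of VEGFB to VEGFA was lower in 4 of 4 horses with a mean difference of -0.62 (exact permutation p = 0.114, adjusted p = 0.229). The ratio of VEGFC to VEGFA differed by -0.062 (exact permutation p = 0.857) and that of ANGPTL2 to ANGPTL4 by 0.58, being higher in 3 of 4 horses (exact permutation p = 0.343, adjusted p = 0.457). The smallest p this unpaired test can give is 0.0286, and no ratio had an adjusted p under 0.05. A ratio that reached that smallest p alone would not pass after the adjustment, so the lack of a call says little about these ratios. A test of signs over 4 pairs cannot give a p below 0.125. No other paired test of these ratios was run.

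The other TIE2 ligands and VEGF receptors were taken from a list of 7 genes of both families, of which 5 were tested. ANGPT1, the main activating ligand of TIE2, fell in all 4 horses without overlap, from 1254 (D), 545 (J), 735 (L) and 2601 (W) normalized counts to 163, 94.2, 44.8 and 99.7. Its log2 fold change was -3.54 (SE 0.38, limma adjusted p = 0.00372). ANGPT4, another TIE2 ligand, held 37847, 20261, 29827 and 52439 normalized counts in the untreated and 3757, 3484, 2431 and 5141 in the treated libraries, a log2 fold change of -3.21 (SE 0.19, limma adjusted p = 0.00121). All 3 angiopoietins with a row were thus called lower, and for ANGPT1 and ANGPT4 this also held without the block.

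KDR, the main signalling receptor for VEGFA, was called higher at low counts, with 3, 22, 5 and 1 reads in the untreated and 13, 38, 23 and 15 reads in the treated libraries of D, J, L and W. Its log2 fold change was 2.27 (SE 0.38, limma adjusted p = 0.0109). In reads the groups overlapped. In normalized counts they were apart by a narrow margin, with 14.8 in the untreated library of horse J and 15.5 in the treated library of horse D. KDR reached the minimum of 10 normalized counts in 4 treated libraries and 1 untreated library. NRP1, a co-receptor of VEGFA, held 6794, 12578, 7235 and 9169 normalized counts in the untreated and 17246, 12640, 20385 and 18630 in the treated libraries, with almost equal values in horse J. It passed the p threshold and not the fold threshold (log2 fold change 0.97, SE 0.26, limma adjusted p = 0.0388), and without horse J it was called higher (1.29, limma adjusted p = 0.00245). NRP2, a co-receptor of VEGFC, had a log2 fold change of -0.79 (SE 0.24, limma adjusted p = 0.0552) and was lower in all 4 horses. FLT4 and TIE1 were not analysed here.

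**Figure D3:**
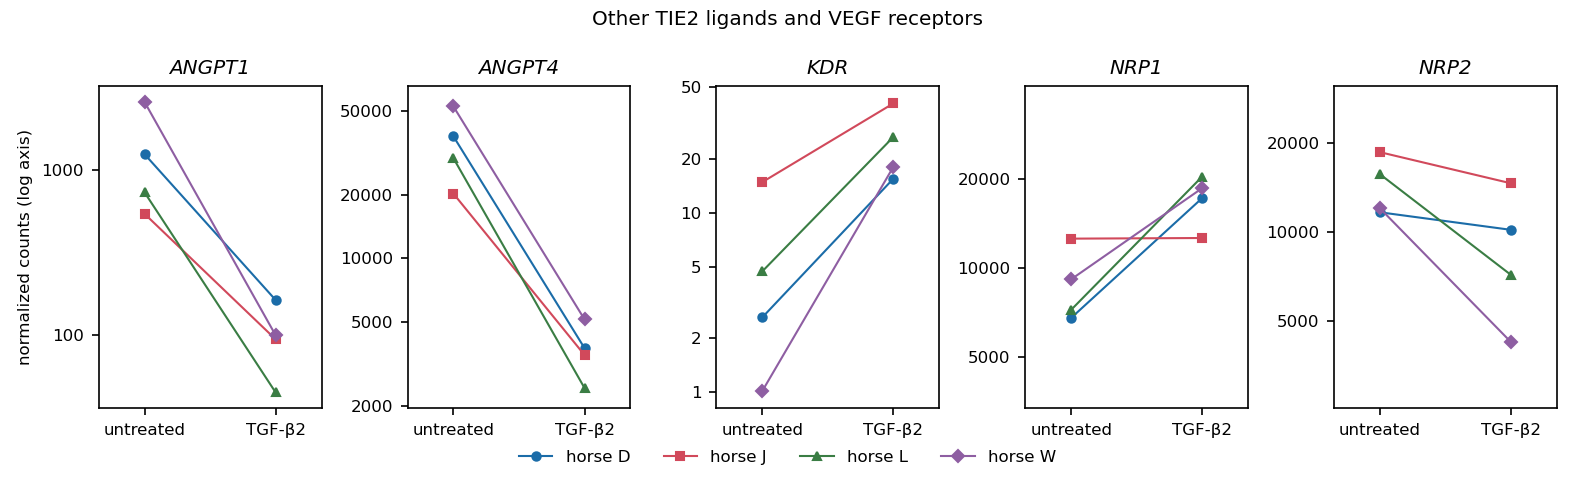
Normalized counts (log axis) of ANGPT1, ANGPT4, KDR, NRP1 and NRP2 in the untreated and TGF-β2-treated library of each horse, with a line joining the libraries of 1 horse. ANGPT1 and ANGPT4 lie lower in all 4 treated libraries than in any untreated one, KDR lies higher, and the NRP1 line of horse J is flat.

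Lists of genes related to the 8 were counted by the same test. They describe these libraries, and nothing particular to a list was tested. Over all genes tested, 6.83% were called higher and 7.31% lower, with a median log2 fold change of 0.0055. Without horse J these shares were 7.67% and 8.71%. Of 7 listed genes that process VEGFC and VEGFD, 6 were tested, of which 2 were called higher and 0 lower. ADAMTS3 was not analysed here. ADAMTS14, a procollagen proteinase that can cleave the VEGFC precursor, rose from 8.12 to 43.1 normalized counts in the untreated libraries to 274 to 465 in the treated ones (log2 fold change 3.94, limma adjusted p = 0.00423). PCSK7, a proprotein convertase, rose with a log2 fold change of 1.20 (limma adjusted p = 0.00286). CCBE1, the cofactor of VEGFC cleavage, stopped just short of the fold threshold at -0.98 (limma adjusted p = 0.00536) with no overlap between groups, and was not called. CTSD, another gene of this list, was also lower without overlap (-0.73, limma adjusted p = 0.0219) and not called.

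Regulators and targets of the response to low oxygen were counted because VEGFA and ANGPTL4 are among its known targets. Of 9 regulators, 2 were called lower and 0 higher. EPAS1, the HIF-2α subunit, fell from between 18585 and 29645 normalized counts to between 5742 and 9317 (log2 fold change -1.68, limma adjusted p = 0.00112), and EGLN3, an oxygen-sensing prolyl hydroxylase, fell by 1.90 on the log2 scale (limma adjusted p = 0.00455). HIF1A, the HIF-1α subunit, had a log2 fold change of 0.67 (limma adjusted p = 0.0198) and was not called.

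Of 15 hypoxia targets outside the 8 genes, 7 were called higher and 2 lower, beside 6.83% and 7.31% of all genes. Their median log2 fold change was 0.82, and 12 of the 15 were higher in all 4 horses, as were 26.3% of all genes. Those called higher were CA9, a carbonic anhydrase (2.07), SLC2A1, the glucose transporter GLUT1 (1.97), BNIP3, a mitophagy receptor (1.71), HK2, a hexokinase (1.49), P4HA1, a collagen prolyl hydroxylase (1.16), ANKRD37 (1.11) and PDK1, a kinase that restrains pyruvate dehydrogenase (1.06). Those called lower were ADM, the vasodilator adrenomedullin (-2.55), and NDRG1 (-1.24). ANGPTL4 with -1.49 was on the side of ADM and NDRG1, and VEGFA with 0.24 was between both sets. Without the block 5 of the 15 were called higher, ANKRD37 and P4HA1 being lost (limma adjusted p = 0.0915 and 0.0599), and without horse J 4 of the 15 were, the log2 fold changes of PDK1 (0.99), ANKRD37 (0.91) and P4HA1 (0.94) then being under the threshold.

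PPAR receptors and their targets were listed because ANGPTL4 is a known target. Of 10 tested, 1 was called higher and 2 lower. FABP3, a fatty acid-binding protein, rose (2.21, limma adjusted p = 0.0017). PDK4, a kinase that spares glucose during fasting, fell from between 169 and 565 normalized counts to between 4.6 and 24.0 (-4.97, limma adjusted p = 0.0010), and CPT1A, the gate enzyme of mitochondrial fatty acid import, fell (-1.25, limma adjusted p = 0.00496). Without horse J the fatty acid receptor CD36 was called lower as well (-1.82, limma adjusted p = 0.00973). The genes that make, anchor or resemble lipoprotein lipase were 6 in number, with 2 called higher, LIPG (1.91) and VLDLR (1.15), which were both lost without the block (limma adjusted p = 0.0556 and 0.0751), and 1 called lower, LIPC (-1.95, limma adjusted p = 0.0486). LIPC passed the filter through the 4 untreated libraries alone, with 3 to 9 reads in the treated ones, and edgeR did not call it (adjusted p = 0.0571). LPL itself, the enzyme that ANGPTL4 inhibits, had a log2 fold change of -0.67 (limma adjusted p = 0.0133) and was not called.

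Other secreted ligands with known angiogenic activity changed in both directions, with 3 of 14 called higher and 4 lower and a median log2 fold change of -0.64. PDGFB, a growth factor that recruits mural cells, rose from between 0.673 and 9.13 normalized counts to between 49.2 and 239 (4.65, limma adjusted p = 0.0029), and it passed the filter through the 4 treated libraries alone, the untreated ones holding 1 to 9 reads. The ligands EFNA1 (1.53) and JAG1 (1.09) also rose, JAG1 with a limma adjusted p of 0.0518 without the block. CXCL12, the chemokine that retains blood stem cells in marrow, fell by 5.57, HGF, hepatocyte growth factor, by 4.72, FGF2, basic fibroblast growth factor, by 1.19 and TNFSF12, the TWEAK cytokine, by 1.05 on the log2 scale. Without horse J, 2 were called higher and 6 lower, JAG1 being lost and EFNB2 and PTN added.

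On a list of secreted factors that mostly restrain vessel growth, 4 of 11 were called higher and 2 lower, with a median log2 fold change of 0.62. These counts and the median include VASH2, which unlike VASH1 is often described as promoting vessels. THBS2 (4.02) and THBS1 (2.38), both thrombospondins, COL18A1 (2.08), the collagen that contains endostatin, and VASH2 (2.07) rose. SEMA3A, a semaphorin that binds NRP1, fell by 4.17, and SERPINF1, pigment epithelium-derived factor, fell by 1.27 and was not called without the block (limma adjusted p = 0.0718). Without horse J, 4 were called higher and 4 lower, SEMA3B and ISM1 being added.

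**Figure D4:**
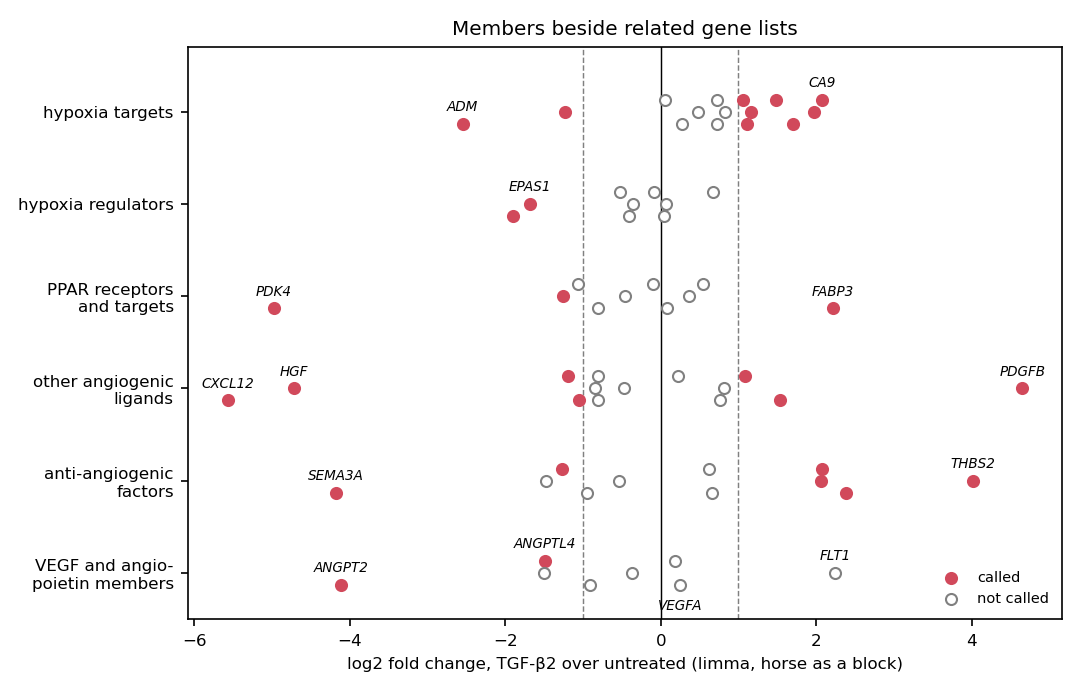
Log2 fold change (TGF-β2-treated over untreated, limma with the horse as a block) of each tested gene in 5 related lists and of the 8 VEGF and angiopoietin genes, with called genes filled and dashed lines at the fold threshold of 1. Hypoxia targets lie mostly to the right with ADM at -2.55 on the left, and ANGPT2 and ANGPTL4 are the called genes in the bottom row. The row of anti-angiogenic factors includes VASH2, which is often described as promoting vessels.

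The genes whose level was most like that of ANGPTL4 over the 8 libraries, by Pearson correlation on the log2 scale, were LOC111775571 (r = 0.990), LOC100061997 (r = 0.990) and KIFAP3 (r = 0.987). Those most like VEGFA were TGIF2 (r = 0.944), SPON1 (r = 0.911) and IDH1 (r = 0.891). These values describe 8 libraries in which each horse appears in both groups, and 14906 genes were compared for each. Among the 8 genes, VEGFB was closest to ANGPTL4 (r = 0.863) and FLT1 ran opposite to it (r = -0.865), whereas VEGFA had r = -0.092 with ANGPTL4. Ranked from the highest r among the 14906 genes, VEGFB was only at place 694 and FLT1 at place 14252.

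Markers of marrow stromal cells were present in every library. Over 7 genes they summed to 170218 to 370659 normalized counts in the untreated and 174472 to 272818 in the treated libraries. These sums mix opposite changes. THY1 (log2 fold change -2.21) and PDGFRA (-3.81) were called lower, whereas ITGB1 (0.91) was called higher without horse J. THY1 held 24238 to 199815 normalized counts in the untreated and 7344 to 37850 in the treated libraries. For ITGB1 these ranges were 70290 to 85751 and 116122 to 184270. Because FLT1, KDR and the angiopoietins are best known from vessels, markers of the vessel wall and blood were set beside them. Of 13 endothelial markers 5 had a row, and their summed level was 58.8 to 418 normalized counts in the untreated and 593 to 1054 in the treated libraries, with KDR, ERG and PLVAP called higher. ERG alone held 25.4 to 368 of the untreated and 471 to 928 of the treated sums, and KDR is both a marker and one of the genes set beside the markers. CDH5, the cadherin that defines endothelial cells, was at 6.09 to 13.2 normalized counts in the untreated and 11.5 to 23.8 in the treated libraries (log2 fold change 0.52, limma adjusted p = 0.264). The other 8 endothelial markers, PECAM1 and VWF among them, were not analysed here. Of 5 tested blood cell markers, ITGB2 and LAPTM5 were called lower with the block and not without it, and CSF1R as well without horse J. The 7 with a row summed to 489 to 2719 normalized counts in the untreated and 369 to 787 in the treated libraries. CD68 alone held 451 to 2437 of the untreated sums, highest in horse J, and 362 to 685 of the treated sums. It was not called (limma adjusted p = 0.0871). Of 5 pericyte markers, DES, which passed the filter through the treated libraries alone, was called higher and MCAM lower. MCAM was not called by edgeR (adjusted p = 0.05003) or without the block (limma adjusted p = 0.0957). The sums of the 5 were 3395 to 10168 normalized counts in the untreated and 4557 to 8611 in the treated libraries. What other cell types contributed to the values of FLT1, KDR and the angiopoietins was not tested.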

How the data were processed

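The 8 libraries are RNA of BM-MSCs, with 1 untreated and 1 TGF-β2-treated library for each of 4 horses. Groups and horses come from the sample labels. The authors trimmed reads with Trimmomatic 0.36, aligned them with STAR 2.5.2b to EquCab 3.0, counted them per gene with featureCounts (Subread 1.5.2) and ran DESeq2. They deposited a signal that is never negative, gene counts divided by a size factor. Within 0.001 reads, 100% of the values were whole multiples of the value of 1 read, so reads could be recovered. Of 15267 rows, 1 carried no name and was excluded (0.0281% to 0.0531% of reads). At this depth a floor of 3 reads equals 2.02 to 3.60 normalized counts. Intervals and floors cover counting error only.

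The main test was limma 3.58.1 in R 4.3.3 (eBayes with trend) on log2(normalized count + 1), with the horse as a block, after removal of genes that reached 10 normalized counts in fewer than 4 of the 8 libraries. Each horse is a separate animal and gave both cultures. Deviations from group means correlated at 0.386 to 0.609 between libraries of 1 horse and at -0.400 to 0.116 between horses. Such deviations cancel out within a group, which by itself pulls the values between horses down when those within a horse are positive. The thresholds for a call (adjusted p 0.05, absolute log2 fold change 1) follow the study. Alternatives were no block, a pseudocount of 0.5 or 5, a filter at 50 or none, TMM, upper-quartile and total scaling, no trend, no fold threshold, each horse left out, and DESeq2 1.42.0 and edgeR 4.0.16 with the horse on the recovered reads. DESeq2 without a term for the horse was chosen after seeing the data. Ratios within libraries were tested by exact two-sided permutation.

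Named genes are the 8 selected, genes of the related lists that were called or are ligands, receptors or co-receptors of both families, and the 3 genes most correlated with ANGPTL4 and VEGFA. CCBE1, CTSD, HIF1A, LPL, CDH5 and the genes called only without horse J were named after their values were seen. The genes and lists were chosen with earlier results of these data known. In simulated data for 15145 genes, 200 were changed by a log2 fold change of 2. Limma recovered 200 with 2 other calls with the block, and 200 with 0 other calls without it. The changed genes were drawn from those with higher mean counts and changed alike in every horse. This recovery therefore does not cover genes with few reads or with changes that differ between horses, such as ANGPT2, FLT1 and PGF. No genome or annotation of EquCab 3.0 was used here, so coordinates and sequences are not given.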

Additional observations from a re-analysis of the deposited data

Results flagged for a closer look

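Of 16 groups of 4 libraries (8 genes, untreated and treated), 1 had a library far from the others in normalized counts without a logarithm. Chance flags about 1 in 20 groups where values are normally distributed, which such counts need not be. ANGPT2 in the treated library of horse J held 181 normalized counts against 2.38 to 8.05 in the other 3 treated libraries. The gap made up 0.968 of the group's range, above the critical value of Dixon's test at 95%. On the log2 scale of the fold changes this gap takes a smaller share of the range, and the groups were not tested on that scale. The untreated library of horse J was also the highest of its group for ANGPT2, at 1464 normalized counts.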

How the results depend on the processing

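Of the 17 alternatives, the counts of calls kept within 1.5 times the main count in 52 of 68 cases, the fold changes of the 8 genes kept direction and call in 119 of 135, and the ratios in 22 of 24. The 8 genes called lower numbered 2, and 1 without the horse as a block, 1 by DESeq2 without the horse, 4 under total scaling, 4 without the fold threshold and 1 to 4 with a horse left out. Those of the 8 called higher numbered 0, and 1 by DESeq2 with the horse and 0 to 1 with a horse left out. Over all genes, the 1018 higher and 1090 lower became 2334 and 2276 without the fold threshold, 704 and 1846 under total scaling, and 547 to 1143 and 533 to 1299 with a horse left out, lowest without horse W and next without horse D (588 and 585). Dropping the block changed no other call of the 8 genes than ANGPT2. The direction turned for VEGFA (-0.068) and VEGFC (-0.13) under total scaling and for VEGFC with a horse left out (-0.015 to 0.42, negative without horse D), and the VEGFC to VEGFA ratio ranged from -0.42 to 0.36 with a horse left out. The cause was not tested. FLT1 had no value with the filter at 50. Depth limits ANGPT2 and FLT1, with 2 to 7 reads of ANGPT2 in 3 treated and 3 to 14 of FLT1 in 3 untreated libraries.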
